A study of Mus musculus with 39 samples.

Results

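RNA made while muscle stem cells were being taken out of mouse hindlimb muscle was compared, gene by gene, with the total RNA that isolated stem cells hold. The comparison covers 8 of the 39 libraries of the study, chosen by their labels alone, and every gene of the table was followed. The 4 tested libraries (TU_sort ex vivo, called the isolation label here) hold polyadenylated RNA that was pulled down after 4-thiouracil (4tU) had been added during an isolation of about 6 h. The 4 libraries set against them (Input_MuSC, called total RNA here) hold polyadenylated RNA of purified stem cells, with no pull-down. Other libraries of the study were used as separate readouts of the same genes. They are stem cells isolated with the inhibitor α-amanitin and with its solvent DMSO (n = 4 each), stem cells of mice perfused with 1% paraformaldehyde before isolation (n = 4) and of unfixed mice (n = 3), RNA pulled down from hindlimb muscle 6 h after 4tU was injected (n = 4), and total RNA of that muscle (n = 4).

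The 6 h pull-down is labelled as stem cell RNA, while its protocol takes RNA of the whole hindlimb muscle. The genotype Pax7CreER/+: UPRTHA/+ is named for the injected mice; the labels do not give the genotype, strain, age or sex of the animals behind the isolation label or the total RNA. Pax7-CreER is active in muscle stem cells, and UPRT is the enzyme that lets a cell turn 4tU into a building block of RNA. The labels describe the total RNA as free of 4tU, whereas their protocol describes it as the material of the pull-down, so it is not settled whether the cells behind it had met 4tU. A pull-down from cells that had never met 4tU was not analysed here, and carry-over of unlabelled RNA into the isolation label has no measured background. Replicates are not said to be separate animals, so every p-value measures only the spread between these libraries, which may be technical.

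Muscle stem cells (satellite cells) lie at rest between the muscle fibre and its basal lamina and are marked by the transcription factor Pax7. Enzymatic digestion, warming and sorting are known to switch on immediate early genes such as Fos, heat shock genes and cytokine genes, and stem cells leave their resting state after injury. A transcript stands high in pulled-down new RNA relative to total RNA when much of its pool was made during labelling, and low when most of it was older. Total RNA taken at the end of the isolation also holds what was made during it, so a gene switched on early in the procedure can be high in both.

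Levels are given in RPKM, read numbers corrected for gene length and for the library, so they can be compared between genes of different length. A difference is the log2 of isolation label over total RNA on the scale log2(RPKM + 0.5), which understates the change of genes at low levels, and a gene is called at an adjusted p under 0.05 from limma over all genes tested.

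The isolation label libraries were shallower and less alike than the total RNA libraries. Replicates 1 to 4 held 7742378, 2321903, 5866734 and 4645789 reads, against 15307952, 22408295, 20053439 and 18237399 reads in the total RNA replicates. On the log2 scale each isolation label library correlated across genes with the others of its group at a mean of 0.899 to 0.920, and each total RNA library at 0.992 to 0.994. Gm10800, a gene model made of repeat sequence, took 2.99% to 5.93% of the reads of the isolation label libraries and 0.286% to 0.313% of those of total RNA. Isolation label replicates 2 and 3 stood apart from replicates 1 and 4 by their content of muscle fibre RNA, and results are given below with and without them.

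The RNA pulled down after labelling during isolation differed from total RNA at most genes. Of 14863 genes tested, 4426 were higher in the isolation label (29.8%) and 4417 were lower (29.7%). At least a 2-fold difference was reached by 3450 of them upwards (23.2%) and by 2324 downwards (15.6%). The split depends on how libraries are scaled, because the deposited values carry the authors' library factors. With library sizes taken from all reads, 3019 of 16363 genes were higher (18.5%) and 8099 lower (49.5%). When library sizes came from the reads of genes enriched in stem cells, 5392 of 14590 were higher (37%) and 2457 lower (16.8%). The scalings moved the median log2 difference of all genes to -0.71 and 0.33, against -0.07 as deposited, and a list is described below under them where they turn its balance of higher and lower members. After a scaled whole muscle profile had been subtracted from each library, as described below, 2718 of 14512 genes were higher (18.7%) and 5511 lower (38%). With isolation label replicates 1 and 4 alone, 4169 of 14114 genes were higher (29.5%) and 4834 lower (34.2%).

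Genes fell into 3 classes by their level in whole muscle against DMSO-treated stem cells, both outside the comparison. Of 4189 muscle-enriched genes, with whole muscle at least 2-fold above the stem cells, 2959 were higher in the isolation label (70.6%) and 22 were lower (0.525%), with a median log2 difference of 1.30. Of 6055 stem-cell-enriched genes, with the stem cells at least 2-fold above whole muscle, 390 were higher (6.44%) and 3149 were lower (52%), with a median of -0.75. The 4619 genes at similar levels in both had 1077 higher (23.3%) and 1246 lower (27%), with a median of -0.11.

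Muscle fibre genes, which code for the contractile apparatus and the energy supply of the fibres, made up the 10 largest rises under the naming rule (Car3, Mylpf, Cox6a2, Myl1, Ckm, Tcap, Pvalb, Acta1, Tnni2 and Tnnt3). All 32 fibre genes of the list were higher in the isolation label, against 29.8% of all genes and 70.6% of muscle-enriched genes. Their median log2 difference was 5.69, against -0.07 over all genes tested. Cox6a2, the subunit of cytochrome c oxidase found in heart and skeletal muscle, had 209, 791, 817 and 248 RPKM in isolation label replicates 1 to 4, against 0.561, 0.953, 3.22 and 4.88 RPKM in the total RNA replicates (log2 difference 7.51 ± 0.62 SE, adjusted p = 8.78e-06). Tnnt3, the troponin T of fast fibres, had 1627, 6062, 6473 and 1780 RPKM in the isolation label and 11.3, 10.4, 35.3 and 46.7 RPKM in total RNA (log2 difference 7.24 ± 0.62, adjusted p = 1.12e-05). In both genes replicates 2 and 3 of the isolation label stood more than 3-fold above replicates 1 and 4.

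Within each isolation label library the fibre genes kept the proportions they had in whole muscle. The level in the library divided by the mean in whole muscle had a median over the 32 genes of 0.0684, 0.258, 0.279 and 0.0805 in replicates 1 to 4. Of the 32 genes, 27, 31, 32 and 28 lay within 1.25-fold of that median. A whole muscle profile scaled by this ratio would correspond to 14.5%, 45.5%, 48.9% and 15.7% of the reads of replicates 1 to 4, and to between 0.464% and 1.02% of the reads of the total RNA libraries. The genes outside that band were Myh7, Myl2, Ryr1, Tnnt1 and Ttn in replicate 1 and Tnnt1 in replicate 2. In replicate 4 they were Myh7, Ryr1, Tnnt1 and Ttn. All lay above the median. Myh7, the slow myosin heavy chain, stood at 0.155 and 0.131 in replicates 1 and 4. Tnnt1, the slow troponin T, stood at 0.163, 0.350 and 0.185 in replicates 1, 2 and 4. RNA pulled down from muscle itself 6 h after injection did not share this evenness: its median ratios were 0.380 to 0.400, and only 13 or 14 of the 32 genes lay within 1.25-fold, from Car3, a carbonic anhydrase of muscle, at 0.157 to 0.161 up to Ryr1, the calcium release channel, at 0.990 to 1.07. The α-amanitin libraries also held fibre RNA, with scaled profiles of 4.50% to 12.9% of their reads against 0.249% to 0.357% in DMSO, though only 7 to 12 of the 32 genes lay within the band.

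**Figure D1:**
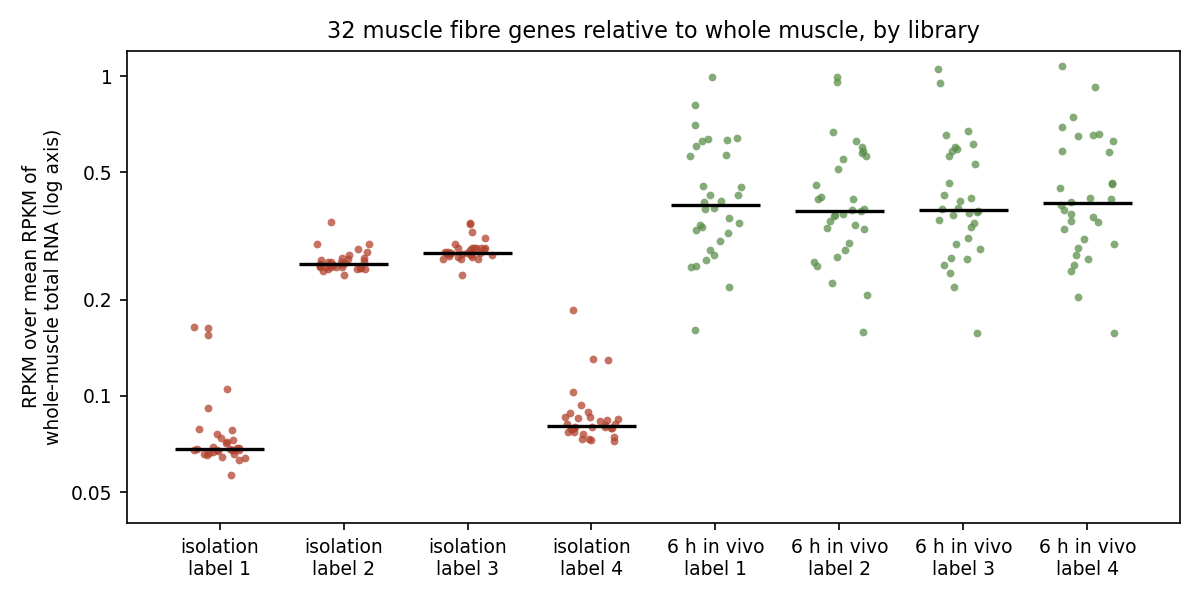
Level of each of 32 muscle fibre genes divided by its mean level in whole muscle (vertical axis, log scale, no unit), by library, for the isolation label and the label given in vivo for 6 h; each point is 1 gene and each bar the median of the library. The points of isolation label replicates 2 and 3 lie tightly around 0.258 and 0.279 and those of replicates 1 and 4 around 0.0684 and 0.0805, while the 6 h libraries spread widely around 0.380 to 0.400.

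Marker lists of other cells of muscle differed among themselves, against 29.8% higher and 29.7% lower of all genes tested. The macrophage and leukocyte list had 18 of 21 tested members higher and 2 lower, the fibro-adipogenic list 16 of 20 higher and 2 lower, the endothelial list 13 of 22 higher and 2 lower, and the erythroid list 6 of 6 higher. The smooth muscle and pericyte list had 7 of 14 higher and 3 lower, or 5 and 5 of 13 after the scaled whole muscle profile had been subtracted, and the tenocyte list 6 of 10 higher and 3 lower. The Schwann and glia list had 4 of 12 higher and 2 lower, with a median log2 difference of 0.06. Divided by whole muscle as above, the median erythroid gene stood at 0.267, 0.371, 0.391 and 0.268 in isolation label replicates 1 to 4, against 0.0171 to 0.0181 in total RNA. The macrophage and leukocyte list stood at 0.557, 0.548, 0.566 and 0.483, against 0.114 to 0.128 in total RNA. The endothelial list stood at 1.63, 1.23, 1.43 and 2.08, so its median gene was above its level in whole muscle in each of the 4 libraries, against 0.701 to 0.767 in total RNA. The fibro-adipogenic list stood at 0.784, 0.770, 0.909 and 0.888, against 0.134 to 0.187. Of these 4 lists given by their ratio, only the erythroid one was, like the fibre list, highest in replicates 2 and 3.

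Within these lists the members did not move together. Cldn5, a tight junction protein of vessels, and Fabp4, the fatty acid binding protein of capillaries and fat cells, had log2 differences of 3.72 and 3.97, whereas the vessel adhesion molecule Pecam1 had 8.48, 10.8, 12.5 and 19.1 RPKM in the isolation label against 7.999, 7.86, 8.53 and 8.33 RPKM in total RNA (adjusted p = 0.0544, or 0.00968 without isolation label replicate 1). The angiopoietin receptor Tek fell by 1.48 and the VEGF receptor Kdr by 0.50. C1qb, a complement component made by macrophages, was at 33.7, 58.1, 47.5 and 35.7 RPKM in the isolation label against 1.63, 1.86, 1.66 and 2.30 RPKM in total RNA (log2 difference 4.202 ± 0.20, adjusted p = 3.05e-07). Ptprc, the pan-leukocyte surface phosphatase CD45, was lower, at 1.63, 0.682, 2.04 and 1.34 RPKM against 2.82, 2.81, 2.61 and 2.43 RPKM (log2 difference -0.77 ± 0.25, adjusted p = 0.0221). Pecam1, Tek, Kdr, Ptprc and Cd163 were chosen after their values were seen. The calls of Kdr, Ptprc and Cd163 were lost without single total RNA libraries: Kdr without replicate 1, 3 or 4 (adjusted p up to 0.0762), Ptprc without replicate 1, 2 or 3 (up to 0.0607) and Cd163 without replicate 4 (0.0533). None of the 3 was called with library sizes from stem-cell-enriched genes. The gene models of the 4 vessel and leukocyte markers that fell, Tek, Kdr, Ptprc and the scavenger receptor Cd163, are 4712, 7278, 6825 and 4492 bases long, and those of Cldn5, Fabp4 and C1qb are 1414, 637 and 1088 bases long. Cldn5, Fabp4 and C1qb are only some of the 13 endothelial and 18 macrophage and leukocyte members that were higher. An order by length within these lists was not tested.

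The stem cells' own markers were lower in the isolation label. Of 25 satellite cell genes tested, 18 were lower and none was higher, against 29.7% and 29.8% of all genes. Their median log2 difference was -0.90. With replicates 1 and 4 alone 16 were lower and 3 higher, and with library sizes from stem-cell-enriched genes 13 were lower and 5 higher. Pax7, which specifies these cells, was at 10.45, 7.35, 7.31 and 13.8 RPKM in the isolation label and at 16.99, 19.4, 16.9 and 18.2 RPKM in total RNA (log2 difference -0.89 ± 0.20, adjusted p = 0.00390). Calcr, the calcitonin receptor that holds them at rest, was at 17.04, 18.4, 13.5 and 18.5 RPKM against 48.4, 45.7, 46.8 and 43.8 RPKM (log2 difference -1.43 ± 0.12, adjusted p = 1.07e-05). In both genes the groups did not overlap, a separation whose share over all genes is not given here. Peg3, an imprinted zinc finger gene, fell by 1.84, Dag1, the laminin receptor dystroglycan, by 1.77, and Itgb1, the integrin β1 chain, by 0.90.

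The surface markers Cdh15 and Cd34 were not called, while others of the list, such as Calcr, Dag1 and Itgb1 above, were lower. Cdh15, the cadherin between stem cell and fibre, was at 101, 68.8, 67.2 and 105 RPKM in the isolation label against 91.8, 98.4, 94.0 and 95.6 RPKM in total RNA (adjusted p = 0.361). Cd34, a sialomucin of resting stem cells and of vessels, was at 63.4, 70.9, 63.2 and 107 RPKM against 65.7, 67.2, 65.0 and 65.2 RPKM (adjusted p = 0.389). For Cdh15 the isolation label libraries lay on both sides of total RNA, and for Cd34 only replicate 4 stood out. Both were chosen after their values were seen, and the missing call does not show that their levels were equal. Under other library sizes each was called in opposite directions: Cd34 at -0.52 with all reads (adjusted p = 0.0265) and 0.61 with stem-cell-enriched genes (adjusted p = 0.00441), and Cdh15 at -0.88 (adjusted p = 0.00377) and 0.25 (adjusted p = 0.0432).

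Genes of the Notch pathway, which keeps stem cells quiescent, were more often lower than higher. Of 15 tested, 8 were lower and 3 higher, against 29.7% and 29.8% of all genes, with a median of -0.65. With library sizes from stem-cell-enriched genes 6 were lower and 5 higher. The receptors Notch3, Notch2 and Notch1 had log2 differences of -1.53, -1.504 and -1.14, and Rbpj, the DNA-binding partner of the activated receptor, was at 8.35, 5.87, 7.58 and 10.2 RPKM in the isolation label against 22.04, 22.4, 22.3 and 20.5 RPKM in total RNA (log2 difference -1.41 ± 0.16, adjusted p = 6.80e-05). Of the target genes, Heyl fell by 1.32, while Hes1 was at 16.4, 12.4, 21.4 and 30.1 RPKM against 11.1, 13.5, 13.3 and 13.9 RPKM (adjusted p = 0.0782, or 0.0130 without isolation label replicate 2). The target and feedback gene Nrarp and the ligands Jag2 and Dll4 were the 3 members that rose. Dll4 lost its call when all reads set the library sizes (0.78, adjusted p = 0.0860). Under that scaling 2 of 17 members tested were higher and 12 lower.

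Genes of myogenic commitment were split between the stem cell factors and the later ones. Myf5, expressed in most resting stem cells, was at 39.9, 28.5, 18.05 and 43.2 RPKM in the isolation label and at 73.9, 86.5, 71.6 and 72.1 RPKM in total RNA (log2 difference -1.29 ± 0.25, adjusted p = 0.00154). Myod1, whose rise marks activation, was at 107, 86.3, 80.0 and 135 RPKM against 89.6, 80.3, 106 and 98.7 RPKM, and its groups overlapped (adjusted p = 0.650). When all reads set the library sizes, its difference was -0.60 (adjusted p = 0.0259), and when those of stem-cell-enriched genes did, 0.53 (adjusted p = 0.00389). Cdkn1c, a cyclin-dependent kinase inhibitor of myogenic cells that stop dividing, was at 139, 92.7, 112 and 134 RPKM against 13.9, 13.9, 15.0 and 14.5 RPKM (log2 difference 2.998 ± 0.14, adjusted p = 2.97e-07). Myog, the factor of terminal differentiation, was at 65.0, 68.0, 36.7 and 79.9 RPKM against 6.85, 7.02, 7.65 and 7.53 RPKM (log2 difference 2.96 ± 0.22, adjusted p = 4.14e-06), and it averaged 60.2 RPKM with α-amanitin and 15.3 RPKM with DMSO, and 933 RPKM in fixed cells and 43.9 RPKM in unfixed cells. Of the 16 myogenic differentiation genes tested, 10 were higher and 2 lower, against 29.8% and 29.7% of all genes. Members that fibres also express rose most, such as Actc1, the cardiac actin isoform, at a log2 difference of 6.11, and Myf6, a myogenic factor of fibres, at 4.62. After the scaled whole muscle profile had been subtracted from each library 6 were higher and 4 lower, and Myf6 was no longer called (1.05, adjusted p = 0.335).

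The early response to dissociation divided by gene rather than rising as a group. Of 34 immediate early and AP-1 genes tested, 9 were higher in the isolation label and 16 lower, against 29.8% and 29.7% of all genes, with a median log2 difference of -0.43; replicates 1 and 4 alone gave 12 higher and 11 lower, and library sizes from stem-cell-enriched genes 13 higher and 12 lower. Fos was at 513, 430, 400 and 785 RPKM in the isolation label and at 861, 978, 815 and 848 RPKM in total RNA (log2 difference -0.77 ± 0.20, adjusted p = 0.00888). Egr2, a zinc finger factor induced by growth signals, was at 22.3, 19.3, 18.4 and 33.7 RPKM against 69.8, 72.5, 66.8 and 69.0 RPKM (log2 difference -1.59 ± 0.18, adjusted p = 6.01e-05). Egr1, a related early factor, was at 574, 441, 374 and 819 RPKM against 1015, 1109, 968 and 997 RPKM (log2 difference -0.95 ± 0.22, adjusted p = 0.00453). Jund, the AP-1 subunit that resting cells keep, went the other way, with 466, 633, 674 and 899 RPKM in the isolation label against 134, 177, 184 and 193 RPKM in total RNA (log2 difference 1.93 ± 0.20, adjusted p = 3.84e-05). With replicates 1 and 4 alone Fos was no longer called (-0.46, adjusted p = 0.0611). For each of these 4 genes every isolation label library lay on the same side of all total RNA libraries. The share of all genes with such a separation is not given here, so it only describes the values.

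Among the AP-1 subunits Junb had a log2 difference of 0.87 and Jun of -0.72, and Fosb, chosen after its values were seen, fell by 1.03. Junb lost its call when all reads set the library sizes (0.17, adjusted p = 0.415) and Jun with replicates 1 and 4 alone (-0.52, adjusted p = 0.0616). The largest rise of the list was that of Cebpb, a C/EBP transcription factor of the inflammatory and stress response, at 23.2, 26.1, 23.04 and 42.9 RPKM in the isolation label against 1.67, 2.53, 4.35 and 6.25 RPKM in total RNA (log2 difference 2.89 ± 0.35, adjusted p = 0.000104). Klf2, a factor of quiescent cells, rose by 2.004 and Ier3, an early survival gene, by 1.57. Of 10 mRNA decay and anti-proliferative early genes tested, 6 were lower, none was higher and 4 were not called. Over all genes 29.7% were lower and 29.8% higher. With library sizes from stem-cell-enriched genes 4 of the 10 were lower and 1 higher. Lower were the anti-proliferative gene Tob2 at -1.10 and the decay factors Zfp36l2 and Zfp36l1 at -1.15 and -0.99.

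These genes were read separately in the other libraries of the study. In cells fixed before the isolation, 32 of 34 immediate early genes were lower than in unfixed cells, none was higher, and the background was 10.8% lower of 12816 genes tested. Fos averaged 44.1 RPKM in fixed cells and 2258 RPKM in unfixed cells, a log2 difference of -5.77, and Jund 94.3 and 792 RPKM, a log2 difference of -3.11. With α-amanitin, which blocks RNA polymerase II, 13 of 34 were higher than with DMSO and 2 lower, against 33.9% higher and 10.3% lower of 13710 genes. Fos averaged 1775 RPKM with α-amanitin and 2126 RPKM with DMSO (adjusted p = 0.357), and Jund 1030 and 208 RPKM (log2 difference 2.23, adjusted p = 0.00884). Cebpb averaged 45.2 RPKM with α-amanitin and 4.29 RPKM with DMSO (log2 difference 2.90, adjusted p = 0.00650). Jund and Cebpb were thus higher both in the isolation label and with α-amanitin, and Fos passed the threshold in neither direction with α-amanitin.

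Of 18 heat shock genes tested, 5 were higher in the isolation label and 11 lower, against 29.8% and 29.7% of all genes, so the share higher was near that of all genes. Their median log2 difference was -0.66, and with library sizes from stem-cell-enriched genes 7 were higher and 7 lower. The 5 that rose were the small heat shock proteins Hspb1, Hspb8 and Cryab, the mitochondrial co-chaperonin Hspe1, and the co-chaperone Dnajb1. After subtraction of the scaled whole muscle profile Hspb8 lost its call (0.63, adjusted p = 0.162). Hspb1 (chr5:135887919-135889563, mm10), which holds unfolded proteins, was at 6315, 5716, 5295 and 7807 RPKM in the isolation label and at 578, 656, 602 and 650 RPKM in total RNA (log2 difference 3.32 ± 0.15, adjusted p = 2.50e-07). Hsph1, a large HSP110 chaperone, was lower, at 96.2, 88.7, 64.5 and 123.4 RPKM against 233, 241, 222 and 218 RPKM (log2 difference -1.32 ± 0.18, adjusted p = 0.000175). The constitutive HSP70 Hspa8 was not called (0.01, adjusted p = 0.968), though it was when all reads set the library sizes (-0.69) and, the other way, when those of stem-cell-enriched genes did (0.44). Hspa1a, the inducible HSP70, was at 727, 668, 599 and 958 RPKM against 719, 795, 710 and 719 RPKM (log2 difference -0.02, adjusted p = 0.934, or -0.72 with adjusted p = 0.00798 when all reads set the library sizes and 0.42 with adjusted p = 0.00184 when those of stem-cell-enriched genes did); its reads can be shared with the near copy Hspa1b.

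Hspe1 and Hspd1 differed although they code for the partners of the mitochondrial chaperonin and start from a shared promoter on opposite strands. Hspe1 (chr1:55088132-55091307) was at 749, 643, 558 and 894 RPKM in the isolation label against 158, 172, 161 and 168 RPKM in total RNA (log2 difference 2.08 ± 0.15, adjusted p = 3.10e-06). Hspd1 (chr1:55077835-55088243) was at 66.3, 110, 103 and 107 RPKM against 191, 194, 182 and 178 RPKM (log2 difference -0.97 ± 0.16, adjusted p = 0.000714). The gene models are 1474 and 2642 bases long and overlap at their starts. Reads of the overlap cannot be told apart, since no source states whether reads were counted by strand. Hspd1, Hsph1, Hspb8 and Dnajb1 were chosen after their values were seen; Hspd1 lost its call with library sizes from stem-cell-enriched genes (-0.53, adjusted p = 0.0658), and Dnajb1 with those from all reads (0.14, adjusted p = 0.570).

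The start regions of these heat shock genes are printed because genes with the same kind of element in them stood on opposite sides of the comparison. Each is 300 bases around the annotated start in RefSeq on GRCm38.p6 (mm10), read 5′ to 3′ on the gene's strand, with capitals for matches to the heat shock element letters GAANNTTC or TTCNNGAA, searched on both strands with overlaps allowed. At least 1 match was present in 15.1% of 32851 such windows of 27025 genes, at least 2 in 1.96% and at least 3 in 0.256%.
Hspb1, chr5:135887669-135887968, plus strand: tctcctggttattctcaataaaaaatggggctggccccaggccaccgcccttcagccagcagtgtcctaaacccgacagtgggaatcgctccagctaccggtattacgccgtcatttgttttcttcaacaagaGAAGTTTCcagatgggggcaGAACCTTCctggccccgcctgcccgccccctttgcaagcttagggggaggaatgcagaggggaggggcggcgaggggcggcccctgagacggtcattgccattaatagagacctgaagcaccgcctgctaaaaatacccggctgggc
Hspe1, chr1:55087898-55088197, plus strand: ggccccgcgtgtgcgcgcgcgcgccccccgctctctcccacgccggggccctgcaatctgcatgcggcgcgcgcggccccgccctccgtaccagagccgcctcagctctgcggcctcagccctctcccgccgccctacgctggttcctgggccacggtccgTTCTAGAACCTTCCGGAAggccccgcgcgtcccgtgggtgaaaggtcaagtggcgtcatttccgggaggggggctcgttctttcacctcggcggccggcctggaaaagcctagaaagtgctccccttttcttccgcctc
Hsph1, chr5:149636287-149636586, minus strand: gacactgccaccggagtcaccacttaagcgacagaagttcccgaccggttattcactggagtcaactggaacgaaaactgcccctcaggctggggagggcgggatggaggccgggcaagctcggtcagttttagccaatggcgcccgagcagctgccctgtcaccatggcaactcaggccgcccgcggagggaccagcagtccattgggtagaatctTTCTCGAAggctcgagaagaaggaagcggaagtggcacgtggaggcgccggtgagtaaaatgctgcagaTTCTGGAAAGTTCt
Hspb1 had 2 matches and Hspe1 and Hsph1 had 3 each. The 3 matches of Hspe1 lie together and fall also in the second of the 2 start windows of Hspd1, chr1:55087883-55088182 on the minus strand. The window of Hspa1a held 1 match and those of Dnajb1 held 0. Hspb1 and Hspe1 were thus higher in the isolation label, and Hsph1, with as many matches as Hspe1, was lower. A match describes the letters only.

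Metallothioneins, the small cysteine-rich proteins that bind zinc and copper and are induced by metals, glucocorticoids and stress, were among the most abundant RNAs of the isolation label, at ranks 4 and 9 of all genes by mean RPKM. Mt1 was at 7258, 5831, 5617 and 9273 RPKM in the isolation label against 1015, 1040, 1104 and 1110 RPKM in total RNA (log2 difference 2.68 ± 0.18, adjusted p = 1.95e-06). Mt2 was at 4244, 3372, 3161 and 5490 RPKM against 608, 591, 672 and 666 RPKM (log2 difference 2.65 ± 0.18, adjusted p = 2.62e-06). Both were chosen after their values were seen. No library of 1 group overlapped the other, a separation whose share over all genes is not given here. In whole muscle they averaged 239 and 68.4 RPKM. In fixed cells Mt1 averaged 306 RPKM and in unfixed cells 3560 RPKM, a log2 difference of -3.43, and with α-amanitin 2735 RPKM against 1048 RPKM with DMSO, a log2 difference of 1.405.
The paired genes share matches to the letters TGCNCNC, with any base at each N, searched on both strands with overlaps allowed. The letters are a loose form of the core of the metal response element, so a match need not be a core. The matches are shown in capitals in their start windows and describe the letters only. Such matches are common, with at least 1 in 51.0% and at least 3 in 7.10% of the windows.
Mt1, chr8:94178839-94179138, plus strand: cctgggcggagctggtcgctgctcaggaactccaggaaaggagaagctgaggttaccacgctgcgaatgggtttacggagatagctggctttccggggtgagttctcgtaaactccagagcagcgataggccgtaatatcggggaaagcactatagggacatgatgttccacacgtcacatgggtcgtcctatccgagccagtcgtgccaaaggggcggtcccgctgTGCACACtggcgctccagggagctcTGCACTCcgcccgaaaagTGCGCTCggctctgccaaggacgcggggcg
Mt2, chr8:94172368-94172667, plus strand: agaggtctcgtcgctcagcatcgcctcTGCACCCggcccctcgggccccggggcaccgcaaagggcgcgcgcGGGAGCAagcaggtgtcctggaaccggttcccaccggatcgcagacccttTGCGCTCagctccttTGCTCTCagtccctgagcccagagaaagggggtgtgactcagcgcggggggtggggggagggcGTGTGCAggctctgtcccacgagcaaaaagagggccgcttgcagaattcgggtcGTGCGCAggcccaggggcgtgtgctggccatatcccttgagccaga
Mt1 had 3 matches and Mt2 had 6.

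The Id genes code for inhibitors of the factors that drive myogenic differentiation. Id3 was at 2139, 1865, 1795 and 2724 RPKM in the isolation label against 278, 304, 287 and 296 RPKM in total RNA (log2 difference 2.85 ± 0.14, adjusted p = 4.44e-07). Id1, chosen after its values were seen, was at 186, 201, 184 and 248 RPKM against 27.2, 26.9, 28.7 and 29.2 RPKM (log2 difference 2.84 ± 0.11, adjusted p = 1.86e-07). In each, the lowest isolation label library stood more than 5-fold above the highest total RNA library. Id2 had a smaller difference of 0.56 (adjusted p = 0.00348), which became -0.14 when all reads set the library sizes (adjusted p = 0.459), and Id4, at 0.291 to 1.17 RPKM in the isolation label and 1.10 to 1.80 RPKM in total RNA, had one of -0.75 (adjusted p = 0.0309), not called without isolation label replicate 3 or total RNA replicate 1, 3 or 4 (adjusted p up to 0.0869). Both were chosen after their values were seen. Csf3, the granulocyte growth factor G-CSF, was among the 10 largest rises of stem-cell-enriched genes, at 22.3, 23.6, 32.7 and 51.0 RPKM against 2.61, 2.32, 2.35 and 2.07 RPKM (log2 difference 3.46 ± 0.25, adjusted p = 3.57e-06).

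Of 25 NF-kB and cytokine genes tested, 6 were higher and 11 lower, against 29.8% and 29.7% of all genes, with a median of -0.51, whereas 10 were higher and 8 lower with library sizes from stem-cell-enriched genes. In fixed cells 23 of 24 were lower and none higher, against 10.8% lower of all genes. Nfkbia, the inhibitor that NF-kB itself induces, was at 380, 330, 336 and 499 RPKM in the isolation label against 134, 141, 141 and 144 RPKM in total RNA (log2 difference 1.44 ± 0.14, adjusted p = 2.22e-05). Birc3, an anti-apoptotic target, was at 13.4, 10.3, 13.0 and 17.3 RPKM against 43.7, 42.7, 43.0 and 40.3 RPKM (log2 difference -1.64 ± 0.15, adjusted p = 1.67e-05), and the nuclear inhibitor Nfkbiz fell by 1.56. The chemokine Ccl2 rose by 1.32, whereas Il6 was at 29.8, 27.9, 28.3 and 75.4 RPKM against 30.4, 28.9, 27.3 and 26.4 RPKM and was not called (adjusted p = 0.308), except with library sizes from stem-cell-enriched genes (0.79, adjusted p = 0.0171). Ccl2 and Il6 were chosen after their values were seen.

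The Gadd45 family of stress sensors divided in the same way. Gadd45g was at 307, 249, 257 and 286 RPKM in the isolation label against 36.8, 41.6, 40.7 and 39.7 RPKM in total RNA (log2 difference 2.77 ± 0.10, adjusted p = 1.30e-07). Gadd45b was at 385, 349, 314 and 408 RPKM against 91.9, 92.1, 89.1 and 93.2 RPKM (log2 difference 1.98 ± 0.10, adjusted p = 5.75e-07). Gadd45a, chosen after its values were seen, was lower, at 44.7, 47.5, 34.3 and 47.8 RPKM against 82.5, 81.7, 81.0 and 77.8 RPKM (log2 difference -0.89 ± 0.12, adjusted p = 0.000202). In the Gadd45 and p53 list as a whole 7 of 18 tested genes were higher and 6 lower, against 29.8% and 29.7% of all genes. With library sizes from all reads 5 were higher and 9 lower, against 18.5% and 49.5% of all genes. Bax, the pore protein of apoptosis, rose by 2.95.

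**Figure D2:**
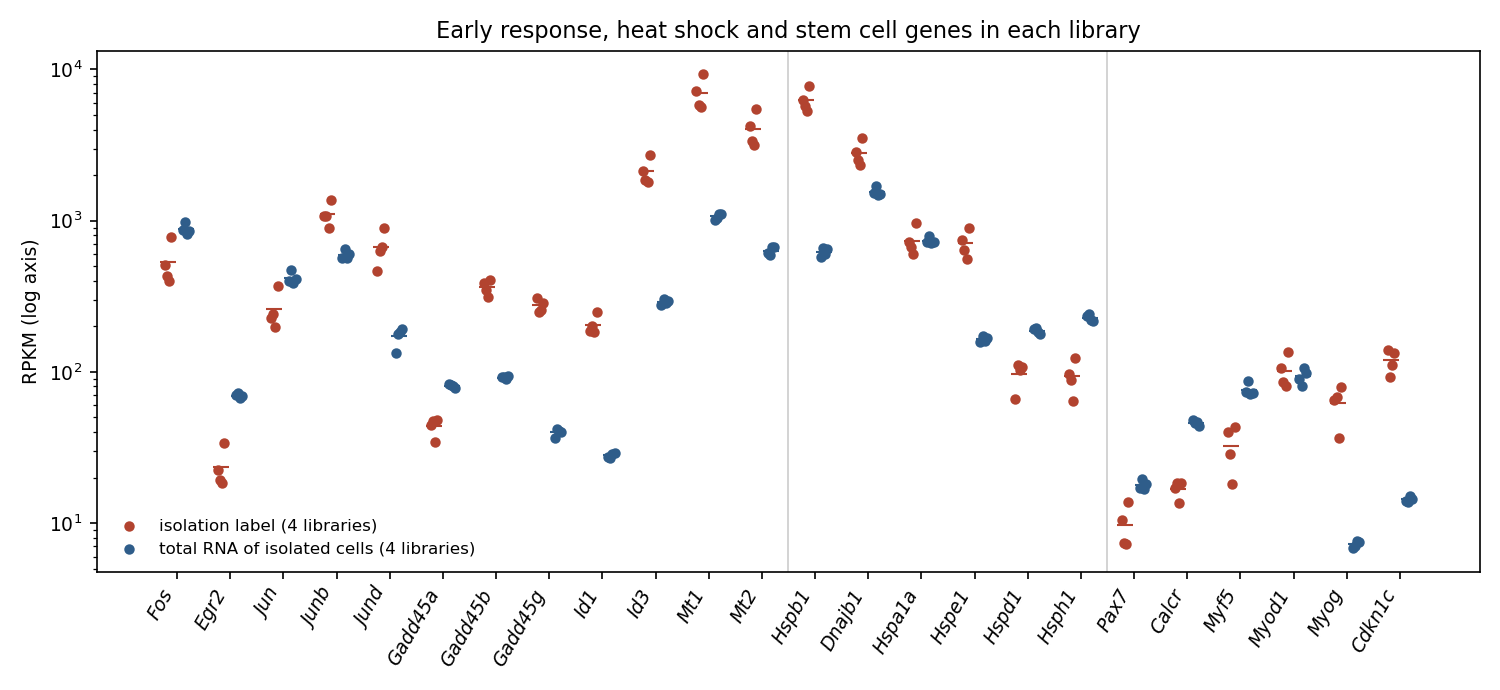
RPKM (vertical axis, log scale) of early response, heat shock and stem cell genes in each library, with isolation label libraries left of total RNA libraries for each gene; each point is 1 library and each bar the mean of 4. Hspb1, Mt1, Id3, Gadd45g and Jund lie apart with the isolation label above, Fos, Egr2, Calcr and Pax7 with it below, and Hspa1a overlaps.

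Genes of the respiratory chain and the ribosome were higher in the isolation label. All 80 nuclear oxidative phosphorylation gene models tested were higher, against 29.8% of all genes. Their median log2 difference was 3.40, and Ndufa13 was among them under 2 gene IDs. They include the muscle isoforms Cox6a2, Cox7a1 and Cox8b, at 7.51, 6.36 and 6.36. Of 83 ribosomal protein genes, the muscle form Rpl3l at 5.32 included, 81 were higher and 1 lower. Over all genes 29.8% were higher and 29.7% lower. The median of the ribosomal protein genes was 2.52. Rpl38, a protein of the large ribosomal subunit, was at 372, 319, 327 and 459 RPKM in the isolation label and at 30.9, 37.01, 37.9 and 38.5 RPKM in total RNA (log2 difference 3.33 ± 0.14, adjusted p = 1.87e-07). Relative to whole muscle, the median ribosomal protein gene stood at 3.99, 3.42, 3.37 and 5.03 in the 4 isolation label libraries, and the median oxidative phosphorylation gene at 0.219, 0.383, 0.405 and 0.253. After the scaled whole muscle profile had been subtracted, 81 of 83 ribosomal protein genes and 76 of 79 oxidative phosphorylation genes were higher. Under that subtraction 18.7% of all genes tested were higher.

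Subunits of the same machine did not move alike. Of 12 RNA polymerase II subunit genes 10 were higher and 1 lower, against 29.8% and 29.7% of all genes. Polr2i, a small subunit, was at 47.7, 45.8, 59.7 and 46.2 RPKM in the isolation label against 4.59, 4.75, 4.70 and 4.32 RPKM in total RNA (log2 difference 3.30 ± 0.12, adjusted p = 1.30e-07). Polr2a, the catalytic subunit, was the 1 that fell, at 6.27, 5.05, 4.44 and 6.00 RPKM against 14.1, 13.6, 14.4 and 13.2 RPKM (log2 difference -1.28 ± 0.14, adjusted p = 5.05e-05). Their gene models are 1212 and 7067 bases long. Polr2a was chosen after its values were seen.

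Other lists are given by their counts, against 29.8% higher and 29.7% lower of all genes tested. With library sizes from all reads these shares were 18.5% and 49.5%, and with those from stem-cell-enriched genes 37% and 16.8%. Among interferon-induced genes 8 of 17 tested were higher and 3 lower, with the antiviral membrane protein Bst2 at a log2 difference of 3.63, the ubiquitin-like Isg15 at 3.12 and the signalling factor Stat2 at -1.45. Of 12 nuclear and snoRNA host RNAs 8 were higher and 2 lower, led by Zfas1 at 3.06. Among 22 cell cycle genes 10 were higher and 2 lower, or 6 and 6 of 23 with library sizes from all reads. Cdc20, an activator of mitotic exit, rose by 2.41 and the replication helicase subunit Mcm4 fell by 1.54. Of 24 ribosome biogenesis genes 4 were higher and 12 lower, or 8 and 7 with library sizes from stem-cell-enriched genes, with nucleolin (Ncl) at -1.14 and the snoRNP protein Nop58 at -1.62. Of 22 collagen and matrix genes 3 were higher and 15 lower; Sparc, a collagen-binding protein, rose by 1.44 and Col6a1 fell by 1.01. All 11 mitochondrially encoded genes and 15 of 19 histone genes were higher, with 1 histone gene lower. Of 14 integrated stress response genes 6 were higher and 2 lower, or 1 and 6 of 15 with library sizes from all reads. Of 12 uracil salvage genes 6 were higher and 1 lower, or 3 and 6 of 13 with library sizes from all reads.

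**Figure D3:**
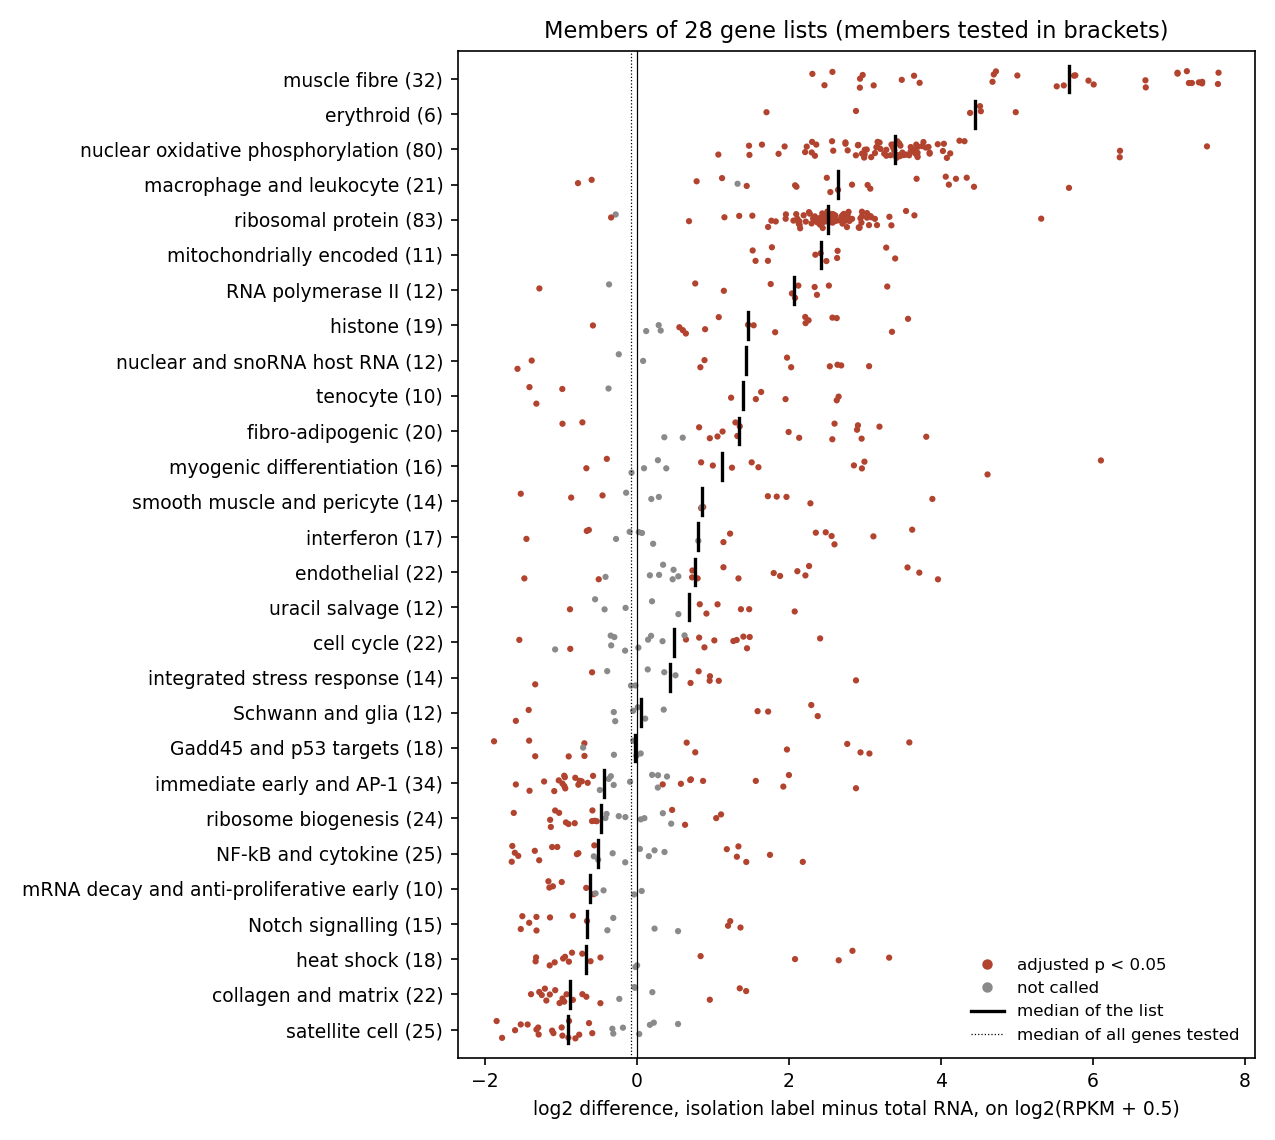
Log2 difference, isolation label minus total RNA, of the tested members of 28 gene lists (horizontal axis), 1 point per gene, red where called and grey where not, with the list's median as a black bar and the number of members tested in brackets. The fibre list stands furthest right with a median of 5.69, the satellite cell list lies at -0.90, and the heat shock and immediate early lists hold called members on both sides of 0.

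The difference ran with the length of the gene model. The median log2 difference was 0.91 for 1191 genes under 1 kb, 0.77 for 2727 genes of 1 to 2 kb, 0.33 for 2762 genes of 2 to 3 kb, -0.09 for 4068 genes of 3 to 5 kb and -0.53 for 4115 genes over 5 kb. The order of the classes also held when all reads or those of stem-cell-enriched genes set the library sizes, but without muscle-enriched genes the medians were -0.46, -0.23, -0.17, -0.39 and -0.65. The same order held within each of the 4 isolation label libraries set against the mean of total RNA. Among genes at similar levels in muscle and stem cells the medians ran down through 2.15, 0.82, 0.17, -0.16 and -0.40 over the same classes. Among stem-cell-enriched genes they showed no such order, at -0.88, -0.74, -0.51, -0.67 and -0.86. In the muscle pull-down 6 h after injection, set against whole muscle, the medians were 0.12, -0.01, 0.03, 0.11 and 0.33, with the longest genes highest.

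Base content ran with the difference as well. In 4 equal groups of genes by the share of U in the longest annotated transcript, known for 99.1% of the genes tested, the median log2 difference was 0.46, 0.06, -0.20 and -0.46 from the poorest to the richest in U. Within stem-cell-enriched genes it was -0.42, -0.61, -0.83 and -1.06. Genes with more U, each a place where 4tU could enter, were lower in the isolation label. Among genes under 1 kb alone the 4 groups had medians of 1.91, 0.92, 0.65 and -0.45, and among genes over 5 kb -0.34, -0.48, -0.59 and -0.65.

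Neighbouring genes that start within 300 bases of each other on opposite strands gave a comparison within a shared start region. Of 513 such pairs with both genes tested, the gene with the shorter model had the higher log2 difference in 356 (69.4%), and the median gap was 0.58. In the 217 pairs whose lengths differed at least 2-fold the share was 178 (82.0%) with a median gap of 1.01, and in the 296 other pairs 178 (60.1%). In 33 of the 217 pairs the 2 genes were called in opposite directions, and in 31 of these the shorter gene was the one that rose. Ndufb3, a complex I subunit with a model of 763 bases, rose by 3.50 beside Fam126b, with 9343 bases, at -0.97; Zfas1 at 3.06 starts 81 bases from Znfx1 at -1.03. Reads were counted per gene model, and the part of fragment size, RNA integrity and poly(A) length in the length order was not tested.

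**Figure D4:**
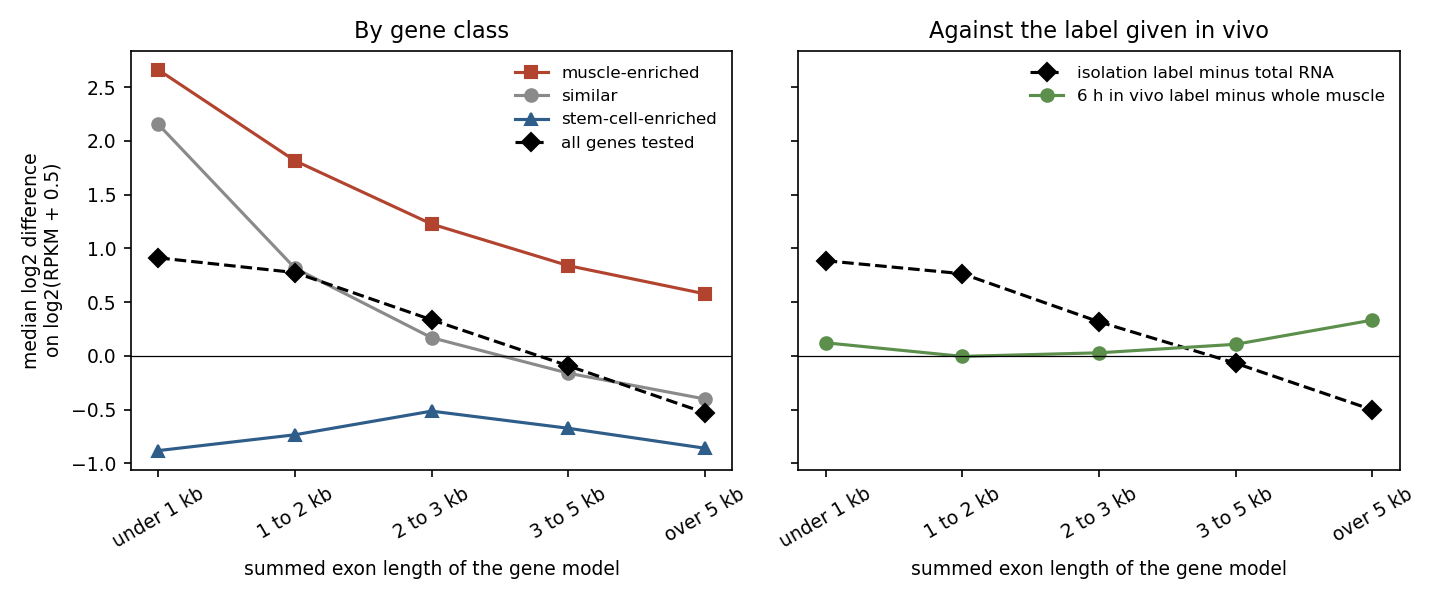
Median log2 difference, isolation label minus total RNA (vertical axis), over 5 classes of gene model length (horizontal axis), for all genes and for the 3 classes of genes by level in whole muscle against DMSO-treated stem cells (left panel), and beside the label given in vivo for 6 h minus whole muscle (right panel). The lines for similar and muscle-enriched genes fall with length, from 2.15 to -0.40 in the similar class, and the line for stem-cell-enriched genes stays between -0.88 and -0.51.

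Genes that were lower with the inhibitor of transcription were mostly lower in the isolation label. Of 1399 genes lower with α-amanitin than with DMSO, 965 were lower in the isolation label (69.0%) and 10 were higher (0.715%), against 29.9% lower and 31.4% higher of the 13402 genes tested in both. Within stem-cell-enriched genes the shares were 71.0% of 1127 lower and 0.621% higher, against 55.8% and 5.96% of 4986. Of 1380 genes lower in fixed than in unfixed cells, 664 were lower in the isolation label (48.1%) and 280 were higher (20.3%), against 28.1% and 32.8% of 12282. Within stem-cell-enriched genes 65.0% of 761 were lower and 8.28% higher, against 55.9% and 6.54% of 3976. Of 128 genes lower in both readouts, 106 were lower in the isolation label (82.8%) and none was higher, against 28.4% and 33.6% of the 11834 genes tested in all 3. This joint set was not compared within stem-cell-enriched genes, which made up 1127 of the 1399 genes lower with α-amanitin. The part of gene class in its share was not tested. Genes of these sets could be called lower only if they were well measured in the DMSO or unfixed cells, and both readouts are of total RNA. The α-amanitin calls depend on single libraries: of the genes tested in both, 3268 were lower without α-amanitin replicate 1, 505, 570 and 724 without its replicates 2, 3 and 4, and 1109, 604, 590 and 642 without DMSO replicates 1 to 4. Over these, 57.5% to 80.7% of them were lower and 0.552% to 2.39% higher in the isolation label. The fixation set ranged over 718 to 1556 genes, with 880 without unfixed replicate 2 and 718 without replicate 3, and 46.1% to 53.9% lower and 18.1% to 22.5% higher. With library sizes from all reads 121 of the 128 genes of the joint set were lower, and with those from stem-cell-enriched genes 92 of 127, with 1 higher. The α-amanitin libraries hold fibre RNA at levels given above; its part in these shares was not tested.

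The 8 genes with the largest falls in this last set were Fam13b, Nup98, Fam49a, Skil, Serinc5, Rbm12, Usp9x and Rlim. In each, every isolation label library lay below every total RNA library. That separation is no separate evidence, since the genes were picked by the size of their falls. Skil, a repressor of TGF-β signalling, was at 14.1, 8.93, 8.11 and 16.2 RPKM in the isolation label against 40.1, 40.4, 39.6 and 37.4 RPKM in total RNA (log2 difference -1.75 ± 0.21, adjusted p = 9.28e-05). Nup98, a nuclear pore protein, was at 11.47, 7.28, 5.84 and 11.2 RPKM against 33.5, 33.3, 32.7 and 31.9 RPKM (log2 difference -1.87 ± 0.21, adjusted p = 5.34e-05). With α-amanitin Skil averaged 34.1 RPKM against 58.3 RPKM with DMSO, and in fixed cells 3.93 RPKM against 51.1 RPKM in unfixed cells. The deubiquitinase Usp9x fell by 1.68 and the ubiquitin ligase Rlim by 1.68.

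**Figure D5:**
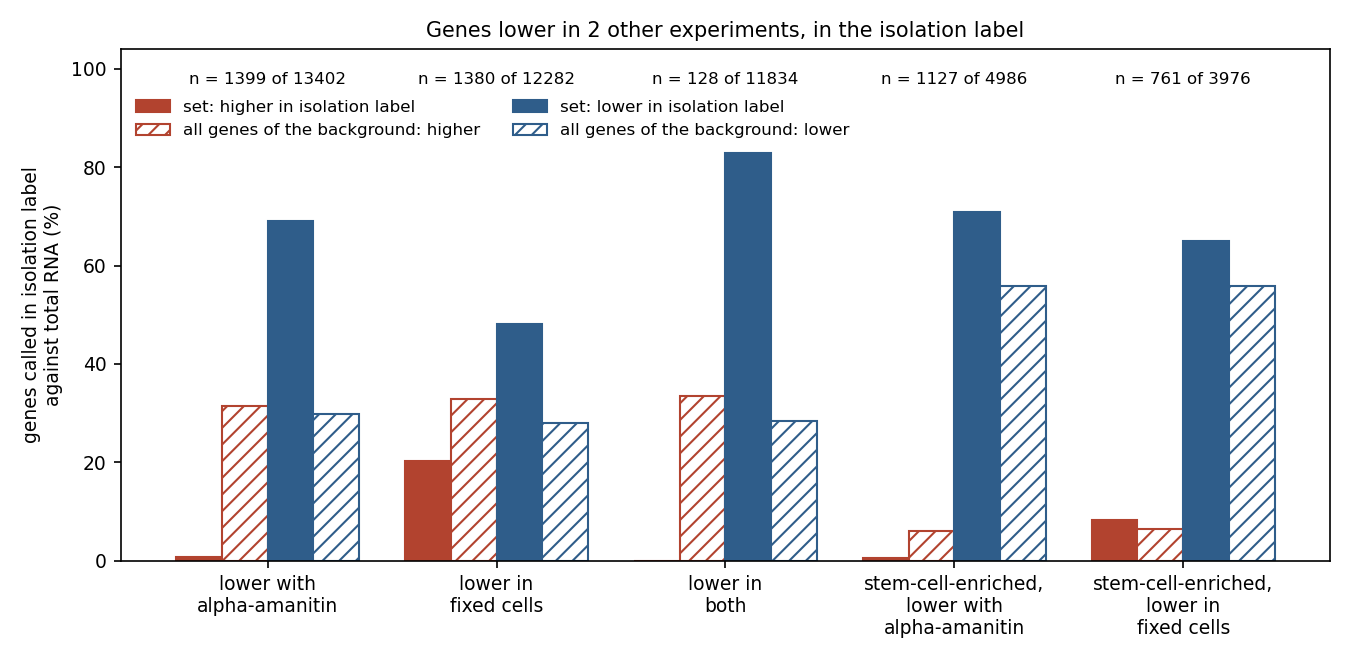
Share of genes (vertical axis, percent) called higher and lower in the isolation label, for genes lower with α-amanitin, lower in fixed cells and lower in both, and for the stem-cell-enriched members of the first and second sets, beside the share over all genes that could enter each set (hatched). The set lower in both readouts has 82.8% lower and 0 higher.

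Set against the same kind of contrast in muscle, pulled-down over total RNA after labelling in vivo for 6 h, the isolation contrast differed at most genes. In a limma fit of the 4 groups with their interaction, 5157 of 15451 genes had a higher difference in the isolation label (33.4%) and 5989 a lower one (38.8%). The muscle-enriched class had 3600 of 4495 higher and 161 lower, and the stem-cell-enriched class 278 of 6096 higher and 4014 lower. The whole muscle libraries that set these classes also enter the interaction. A split in this direction is therefore partly built in, by an amount that was not tested. Hspb1 differed by 3.32 and Jund by 1.85 upwards, while Myf5 differed by -3.54, Calcr by -2.73 and Gadd45a by -3.11. For Mt2 the 2 contrasts did not differ beyond their spread (0.15, adjusted p = 0.494). The interaction uses the same isolation label and total RNA libraries as the main comparison and is no separate evidence for it.

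The largest falls by the naming rule were mostly low-level genes. They were immunoglobulin and T cell receptor segments, such as Ighv2-6 at 1.66, 2.22, 0 and 0 RPKM in the isolation label against 6.33, 6.63, 5.08 and 5.47 RPKM in total RNA (adjusted p = 0.00347). These values stand for 6, 2, 0 and 0 reads in the isolation label and 66, 100, 68 and 68 reads in total RNA, so such falls rest on very few reads. Among better measured genes Map2, a microtubule-associated protein with a gene model of 16449 bases, was at 2.24, 1.30, 1.09 and 2.78 RPKM in the isolation label against 9.68, 9.76, 9.28 and 8.80 RPKM in total RNA (log2 difference -2.13 ± 0.24, adjusted p = 6.42e-05). The rises of stem-cell-enriched genes included Lhx5, a homeobox gene, at 7.80, 4.15, 7.45 and 8.20 RPKM against 0.295, 0.293, 0.380 and 0.269 RPKM (log2 difference 3.15 ± 0.23, adjusted p = 4.14e-06), and Hist1h4d, a replication-dependent histone H4 gene, at 36.4, 37.5, 31.9 and 63.1 RPKM against 2.30, 3.31, 4.99 and 3.94 RPKM (log2 difference 3.36 ± 0.26, adjusted p = 5.71e-06). Hsp25-ps1, a copy of Hspb1, is uncertain because the 2 can share reads.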

How the data were processed

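Polyadenylated RNA was reverse-transcribed from 500 pg with oligo(dT) priming, amplified over 13 to 15 cycles and sequenced as 101 bp paired ends, per the labels' protocols. The submitters' processing notes name Trim Galore, STAR, featureCounts of Subread, edgeR and the build mm10; they give no versions here, and strand use is not stated. The authors deposited RPKM values in separately normalized tables, 1 of 32 libraries and 16979 genes, which holds the isolation label, and 1 of 7 fixed and unfixed libraries and 13938 genes. The deposited tables also hold the gene model length in bases, a column of no usual expression unit (called other). The header of the larger table stands 1 cell left of its values, and columns were read accordingly. Symbols came from the tables, and 1350 of 1488 and 468 of 555 genes without one were named by their ID. No value column of either table was left out of the mapping, and 0 columns belonged to no sample.

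RPKM times length was a whole multiple of 1 step per library, within 0.1, in 100% of values, which gave back the reads behind each value and the authors' library scaling. The planned count test was replaced by limma 3.58.1 (R 4.3.3) with trend on log2(RPKM + 0.5), for genes that reached 1 RPKM in 3 or more libraries of the comparison, two-sided, with Benjamini-Hochberg adjustment over all genes tested. On the recovered reads, limma-voom called 4778 genes higher and 4860 lower in the isolation label. Totals were 2321903 to 7742378 reads in the isolation label and 15307952 to 22408295 in total RNA; PCR copies are not independent molecules. Each comparison was fitted on its own groups. The script was tested on simulated data. Tables were handled with pandas 2.3.3 and figures drawn with matplotlib 3.10.9 (Python 3.11.15).

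Named were the 10 largest rises and falls among called genes whose groups did not overlap, with 5 RPKM or more in whichever group was higher, over all and over stem-cell-enriched genes, up to 4 members of each of 28 lists by adjusted p, the largest changes among genes lower in both other readouts, and 12 genes of prior interest, among them Pax7, Fos and Myog. Members and lists were chosen with earlier results of these data known. Outside this rule, the following were chosen after their values were seen: Ccl2, Cd163, Cd34, Cdh15, Cox7a1, Cox8b, Dll4, Dnajb1, Fam126b, Fosb, Gadd45a, Hes1, Heyl, Hspa1b, Hspb8, Hspd1, Hsph1, Id1, Id2, Id4, Il6, Jag2, Kdr, Klf2, Mt1, Mt2, Myl2, Ndufa13, Nrarp, Pecam1, Polr2a, Ptprc, Rpl3l, Ryr1, Stat2, Tek, Tnnt1, Ttn and Znfx1. Start windows came from RefSeq, and base shares from the longest transcript of the GENCODE annotation given for mm10. Alternatives changed the pseudocount, the low-value filter, the library sizes, the test, the depth, the libraries used, the groups in the fit and the replicate block. The scaling to stem-cell-enriched genes, the use of isolation label replicates 1 and 4 alone and the subtraction of a scaled whole muscle profile were chosen after seeing the data. The labels of 1 and 4 days of injection were not analysed here except in fits of all groups.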

Additional observations from a re-analysis of the deposited data

Results flagged for a closer look

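Among 234 groups of 4 libraries examined for 117 genes named, 14 had 1 library farther from the other 3 than Dixon's 95% critical value allows, and chance alone gives about 1 in 20 groups. In the isolation label, replicate 4 stood above the others for Cebpb (42.9 RPKM), Ier3 (186 RPKM), Il6 (75.4 RPKM) and Isg15 (72.8 RPKM), replicate 1 was highest for Gm10800 (67349 RPKM) and lowest for Hspd1 (66.3 RPKM), and replicate 3 was highest for Polr2i (59.7 RPKM). In total RNA, replicate 2 stood apart for Ttn (1.09 RPKM) and was highest for Dag1 (335 RPKM), Hspa1a (795 RPKM), Hspa1b (1655 RPKM) and Myf5 (86.5 RPKM), replicate 4 stood apart for Ryr1 (0.718 RPKM) and replicate 1 for Zfp36l2 (36.6 RPKM). No explanation of these libraries was tested.

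The difference between pulled-down and total RNA was not the same in the isolation as in muscle labelled in vivo for 6 h. By limma's test of the interaction with Benjamini-Hochberg adjustment, 5157 genes had a higher difference in the isolation contrast and 5989 a lower one.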

How the results depend on the processing

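In the comparison of isolation label and total RNA, subtracting the scaled whole muscle profile left 2718 genes higher and leaving out muscle-enriched genes 1465. Genes lower numbered 8099 with library sizes from all reads, 2457 with those from stem-cell-enriched genes and 2324 at 2-fold or more. Leaving out 1 library at a time gave 3987 to 4703 higher and 3597 to 5072 lower. For α-amanitin against DMSO the lower calls numbered 3125 with all groups in 1 fit, 4358 with all reads and 2243 with the median of ratios, and single omissions gave 2317 to 7367 higher and 511 to 3293 lower. For fixed against unfixed cells they gave 809 to 1821 higher and 718 to 1563 lower. The interaction had 3191 higher and 9679 lower with all reads, and 4977 to 5490 and 5658 to 6599 over single omissions.

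The replicate block gave 4362 genes higher and 4042 lower in the isolation label, 1678 and 300 with α-amanitin, and 845 higher in fixed cells. Same-numbered libraries did not deviate together. Their correlations over genes were 0.149, -0.039, 0.050 and -0.030 for the isolation label, -0.591 to -0.110 for α-amanitin and 0.035 and -0.037 for fixation. These values cannot decide whether same-numbered libraries came from the same material. Differences within a group, such as the uneven fibre RNA of the isolation label, enter the deviations and could hide it.

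Without muscle-enriched genes the median log2 differences under 1 kb, of 1 to 2 kb and of 2 to 3 kb turned to -0.46, -0.23 and -0.17. The 2 to 3 kb median was -0.29 with all reads and -0.16 after subtraction, and the 3 to 5 kb median was 0.30 with stem-cell scaling. Signs turned, with a call, for Cd34 (-0.52), Myod1 (-0.60) and Hspa8 (-0.69) with all reads and for Cdh15 (0.25) and Hspa1a (0.42) with stem-cell scaling; none of these was called as deposited. Id2, called as deposited, had -0.14 with all reads. The cause was not tested in any of these cases. Genes at low levels rest on few reads in the shallower isolation label libraries, of 2321903 to 7742378 reads.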
